A study of Homo sapiens with 18 samples.

Results

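The genes described here are the ID genes and genes of BMP signalling: ID1, ID2, ID3, ID4, SMAD1, SMAD5, SMAD6, SMAD7, BMP4 and BAMBI, 10 of the 26485 genes listed in each deposited table. They were chosen by name, and the choice rested on measured values of this series: higher levels of ID genes with the PKR siRNAs. The siRNA values of these 10 genes are therefore given as a description without a test, and tests of them were made on the C16 libraries. The question was whether other targets and ligands of the BMP pathway moved together with the ID genes.

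PANC-1, an established human cell line from a ductal carcinoma of the pancreas, was used in all 18 libraries, 3 in each of 6 groups. In the siRNA table cells were transfected with control siRNA, with PKR siRNA 1 or with PKR siRNA 2, and were harvested after 72 h. The second table held DMSO, C16 400 nM and C16 800 nM, from cells harvested likewise after 72 h. PKR is the kinase that the gene EIF2AK2 encodes, and C16 is a small-molecule inhibitor of that kinase given in DMSO. The 400 nM dose is given by the sample labels, whereas the study's methods name 800 nM. The siRNA and C16 libraries came from separate sequencing runs, so an effect of the run cannot be told apart from the kind of treatment, and values were compared only within a table. Nothing in the sources says that the 3 libraries of a group came from separate cultures, so SDs and p-values measure the spread between libraries, which may be technical.

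Reads on genes numbered 1512940 to 1873906 per siRNA library and 894145 to 1474308 per C16 library, so that genes with few reads are imprecise, more so in the C16 table. EIF2AK2, the target of the siRNAs, was at 97.4 ± 5.21 (SD, n = 3) normalized counts under control siRNA, at 11.1 ± 2.19 under PKR siRNA 1 and at 8.65 ± 0.726 under PKR siRNA 2. It was at 49.8 ± 4.203 with DMSO, 42.5 ± 3.26 at 400 nM and 49.9 ± 1.38 at 800 nM. Markers of ductal epithelium were present in every group, 7 of 7 genes, and PTPRC and CD3E, which define leukocytes and T cells, were listed at 0 in every library. The summed ductal markers ranged from 5552 to 5670 under control siRNA, from 3353 to 3554 under PKR siRNA 1 and from 9829 to 10463 under PKR siRNA 2, and 7290 to 7715 with DMSO, 6145 to 6632 at 400 nM and 5275 to 5788 at 800 nM. The summed fibroblast markers, with DCN at 0 in every library, ranged in the same order but with an overlap of DMSO and 400 nM, from 84.2 to 117, 26.3 to 32.2 and 130.3 to 139 in the siRNA groups and from 149 to 184, 120 to 181 and 80.2 to 117 in the C16 groups. The leukocyte list was CD68 alone, at 147 to 169, 205 to 273 and 194 to 204 and at 51.0 to 57.3, 141 to 171 and 104 to 123, and the endothelial sum reached at most 1.07. The mesenchymal markers VIM, ZEB1 and FN1, 3 of 3 present, summed to 4698 to 4907 under control siRNA, to 5021 to 5062 under PKR siRNA 1 and to 5243 to 5493 under PKR siRNA 2. They summed to 3089 to 3121 with DMSO, 2353 to 2536 at 400 nM and 1944 to 2155 at 800 nM, so that neither table had overlapping groups. Nearly all of these sums was VIM, with means of 4973 over the siRNA libraries and 2483 over the C16 libraries. ZEB1 had means of 92.1 and 48.3, and FN1 of 6.24 and 2.53. The fibroblast sums were likewise mostly COL1A1, with means of 77.0 and 115, against 7.45 and 21.4 for COL3A1.

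BMPs are secreted ligands that join type I and type II receptor kinases at the cell surface. The type I receptor phosphorylates SMAD1, SMAD5 and SMAD9, which enter the nucleus with SMAD4 and bind target genes, among which ID1, ID2 and ID3 are the best known. SMAD6 and SMAD7 are inhibitory SMADs that are themselves targets and feed back on the receptors. ID proteins are helix-loop-helix proteins without a DNA-binding region, and they hold E proteins such as TCF3 and TCF12 away from DNA, which in many tissues keeps differentiation in check.

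A known BMP-responsive element of the ID1 gene joins a GC-rich box, GGCGCC, to a SMAD box at a short distance. The letters GGCGCC, 5 bases of any kind and then GTCT (first form) or GACA (second form) were chosen from general knowledge of that element and were searched on both strands of hg38, from 5000 bases upstream to 500 bases downstream of each gene start in the deposited tables. The sequences are shown because they are the places near these genes where the letters of both boxes stand together. Each is written in the 5′ to 3′ direction of the gene's strand, with the boxes in capitals.
ID1, chr20:31604317-31604345, + strand: cccgcgcGGCGCCagcctGACAgtccgtc
ID2, chr2:8678881-8678909, + strand: cctgagcGGCGCCgcgagGACAaggctgc
ID2, chr2:8678935-8678963, + strand: cgcgcctGGCGCCagagaGTCTgctccgg
ID3, chr1:23562442-23562470, - strand: ccaccctGGCGCCaggctGTCTggggctg
SMAD7, chr18:48951725-48951753, - strand: aggaggaGGCGCCgagagGACAccggggc

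The first form was found near 176 of 25056 genes (0.702%), ID2 and ID3 among them. The second form was found near 137 (0.547%), with ID1, ID2 and SMAD7 among them. The letters were chosen from knowledge of the ID1 element, so a match near ID1 is no independent result. Counted in bases from the gene start, with negative values upstream, the match near ID1 began at -959, the ID2 matches at -3095 and -3041, the ID3 match at -2669 and the SMAD7 match at -1035. GGCGCC alone was found near 65.5% of genes and near all 10 described here. In RefSeq promoters of hg38, 250 bases before to 50 after the start, GGCGCC stood in 19.0% of 27305 promoters, and of the 10 genes in those of SMAD5, BMP4 and BAMBI. These letter matches are a description and not binding sites. The deposited gene models place ID1 at chromosome 20, 31605283 to 31606514 on the + strand, ID2 at chromosome 2, 8681983 to 8684453 on the + strand, and ID3 at chromosome 1, 23557930 to 23559794 on the - strand. The inhibitory SMAD6 lies at chromosome 15, 66702336 to 66781999 on the + strand, and SMAD7 at chromosome 18, 48919853 to 48950711 on the - strand. Of the 10 genes, SMAD1 alone shares exon bases with another gene of the tables.

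**Figure D1:**
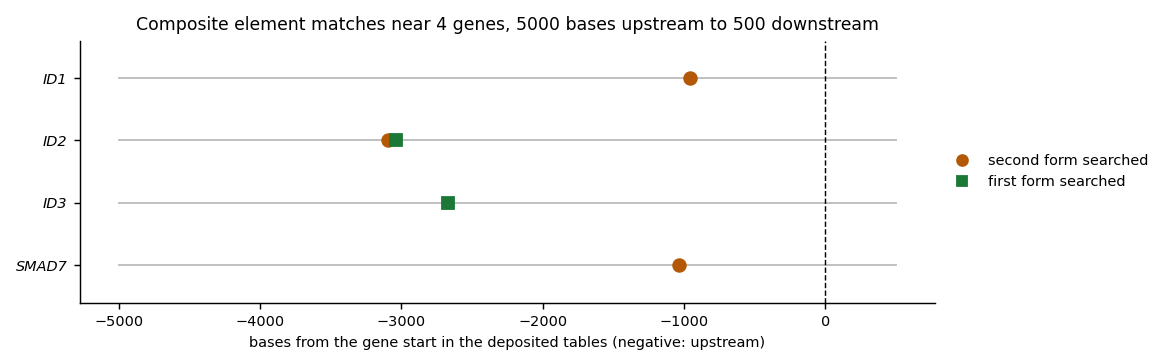
Positions of the composite element matches relative to the gene start in the deposited tables, in bases, with the searched window as a grey line for each of 4 genes (squares, first form; circles, second form). The ID2 matches lie close together at -3095 and -3041, and the ID1 and SMAD7 matches lie nearest to the start, at -959 and -1035.

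ID1 was the most abundant of the 10 genes per kilobase in every group. Under the PKR siRNAs ID1, ID2 and ID3 stood at higher levels than under control siRNA, more so under PKR siRNA 2. ID1 was at 117, 106 and 102 normalized counts with control siRNA, at 199, 228 and 206 with PKR siRNA 1 and at 906, 782 and 961 with PKR siRNA 2. All libraries of each PKR siRNA lay above the control libraries and those of PKR siRNA 2 above those of PKR siRNA 1. The log2 fold change of ID1, on the scale of log2 (normalized count + 1) as throughout, was 0.95 (SE 0.08) with PKR siRNA 1 and 3.01 (SE 0.08) with PKR siRNA 2.

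ID2 had the greatest fold difference of the ID genes, from a low level. It was at 6.16, 6.45 and 2.84 normalized counts with control siRNA, which rest on 15 reads in all. It was at 31.1, 37.2 and 34.7 with PKR siRNA 1 and at 169, 143 and 175 with PKR siRNA 2, and the 3 groups did not overlap. The log2 fold changes were 2.58 (SE 0.22) and 4.79 (SE 0.22). The pseudocount of 1 understates the fold at so low a control level, and ID2 passed the minimum mean of 10 normalized counts only through the PKR siRNA libraries.

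ID3 lay between ID1 and ID2 in level per kilobase. It was at 38.0, 32.2 and 40.8 normalized counts with control siRNA, at 92.2, 88.0 and 106 with PKR siRNA 1 and at 382, 362 and 407 with PKR siRNA 2. Again the 3 groups did not overlap, and the log2 fold changes were 1.35 (SE 0.12) and 3.35 (SE 0.12). ID4, the remaining family member, had 3 reads over the control siRNA libraries, 5 over those of PKR siRNA 1 and 6 over those of PKR siRNA 2, and the ratio of PKR siRNA 2 to control was 1.97 with an exact 95% interval of 0.421 to 12.2. Intervals of this kind cover counting error only. At this depth a difference of ID4 was not detectable.

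PKR siRNA 2 differed from PKR siRNA 1 by similar log2 amounts for the 3 expressed ID genes: 2.06 for ID1, 2.21 for ID2 and 2.00 for ID3. EIF2AK2 itself was at 9.65 to 13.6 normalized counts with PKR siRNA 1 and at 7.96 to 9.40 with PKR siRNA 2. These ranges did not overlap, but they lay closer together than the value of 1 read, which was 0.907 to 1.11 in the siRNA libraries. A difference in knockdown between the 2 PKR siRNAs was therefore not resolved at this depth. The part of EIF2AK2 in the ID values was not tested. The summed mesenchymal markers, nearly all VIM, stood in the same order of groups as ID1, ID2 and ID3, and their part in these values was not tested. In the bulk libraries a change in the share of cells and a change in RNA per cell cannot be told apart.

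**Figure D2:**
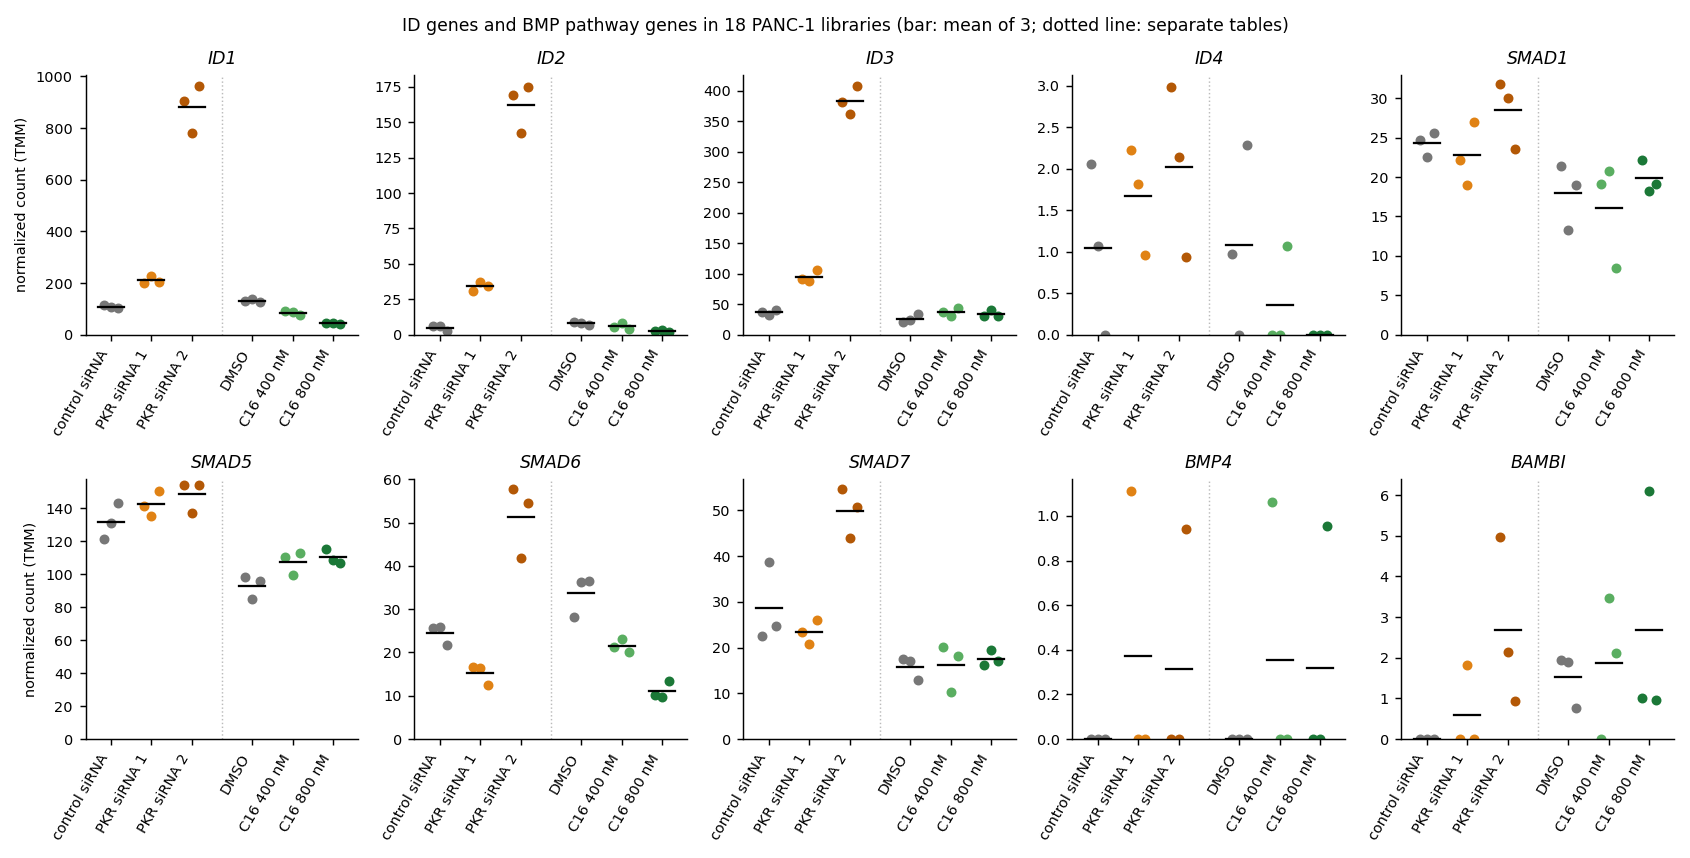
Normalized counts (linear axes from 0) of the 10 genes in all 18 libraries, 3 points a group with a bar at the mean, the siRNA table to the left of the dotted line and the C16 table to the right. ID1, ID2 and ID3 step upward from control siRNA to PKR siRNA 2, while ID1 and SMAD6 step downward from DMSO to 800 nM C16.

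Of the receptor-regulated SMADs, SMAD1 and SMAD5 were close to control levels. SMAD1 was at 24.6, 22.6 and 25.6 normalized counts with control siRNA, at 22.2, 19.0 and 27.0 with PKR siRNA 1 and at 31.8, 30.02 and 23.5 with PKR siRNA 2, and the groups overlapped. Its log2 fold changes were -0.10 and 0.21 (SE 0.23). SMAD1 shares 413 of its 3117 exon bases (13.3%) with SMAD1-AS1 on the opposite strand, and whether the authors' counting used strand is not given in the sources used here, so its values are uncertain. SMAD5 was at 121, 131 and 143 with control siRNA, at 141, 135 and 151 with PKR siRNA 1 and at 154, 137 and 154 with PKR siRNA 2, with log2 fold changes of 0.11 and 0.17 (SE 0.10) and overlapping groups.

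The inhibitory SMADs took different positions with the different siRNAs. SMAD6 was at 25.7, 25.8 and 21.8 normalized counts with control siRNA, at 16.7, 16.3 and 12.5 with PKR siRNA 1 and at 57.7, 41.8 and 54.5 with PKR siRNA 2. Thus every PKR siRNA 1 library lay below the controls and every PKR siRNA 2 library above them, with log2 fold changes of -0.66 and 1.03 (SE 0.22). The summed ductal markers had the same order of groups, and their part in the SMAD6 values was not tested. SMAD7 was at 22.6, 38.7 and 24.6 with control siRNA, at 23.3, 20.9 and 26.1 with PKR siRNA 1 and at 54.7, 43.96 and 50.8 with PKR siRNA 2. PKR siRNA 1 overlapped the controls for SMAD7 and PKR siRNA 2 lay above them, with log2 fold changes of -0.25 and 0.81 (SE 0.21).

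The ligand BMP4 and the pseudoreceptor BAMBI, which dampens BMP and TGF-beta receptors, were near 0. BMP4 had 0 reads over the control siRNA libraries and 1 read over each group of PKR siRNA libraries, and of the C16 table DMSO had 0, 400 nM 1 and 800 nM 1. BAMBI had 0 reads over the control siRNA libraries, 2 over those of PKR siRNA 1 and 8 over those of PKR siRNA 2. Of these 8 reads, replicates 1, 2 and 3 held 5, 2 and 1, and no fold is given.

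Levels of different genes were compared as normalized counts per kilobase of the deposited exon length. With control siRNA the order was ID1 (88.2 ± 6.16, SD, n = 3), ID3 (29.9 ± 3.51), SMAD5 (18.6 ± 1.55), SMAD7 (8.32 ± 2.54), SMAD6 (8.11 ± 0.753), SMAD1 (7.79 ± 0.498), ID2 (3.78 ± 1.47) and ID4 (0.269 ± 0.265), and SMAD7, SMAD6 and SMAD1 did not differ beyond their spread. With PKR siRNA 1 the order was ID1 (171 ± 12.2, SD, n = 3), ID3 (77.0 ± 7.67), ID2 (25.2 ± 2.24) and SMAD5 (20.04 ± 1.09). With PKR siRNA 2 it was ID1 (717 ± 74.6), ID3 (309.8 ± 18.1), ID2 (119 ± 12.6) and SMAD5 (20.9 ± 1.38), followed by SMAD6 (17.1 ± 2.79) and SMAD7 (14.5 ± 1.58). SMAD6 and SMAD7 overlapped in that group, while every SMAD5 library lay above every SMAD6 library. ID2 thus stood seventh among the 10 genes per kilobase with control siRNA and after ID1 and ID3 with either PKR siRNA.

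The kinase inhibitor gave a different picture for the ID genes. Of the 10 genes, 6 reached the minimum mean of 10 normalized counts with C16 and DMSO and were tested with limma over all 9963 genes that passed this filter. A gene was called when its Benjamini-Hochberg adjusted p was under 0.05 and its fold over 1.5. At 400 nM 0 of the 6 were called higher, against 7.08% of all genes tested, and 1 lower (ID1), against 5.45%. At 800 nM 0 were called higher, against 11.6%, and 2 lower (ID1 and SMAD6), against 14.1%. Between 800 and 400 nM 0 were called higher, against 1.13%, and the same 2 lower, against 3.95%. The median log2 fold change of the 6 genes was -0.11 at 400 nM and 0.16 at 800 nM, against 0.0010 and 0.0020 over all genes tested.

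ID1 fell with C16 and fell further at the higher dose. It was at 130, 140 and 127 normalized counts with DMSO, at 90.4, 88.8 and 76.6 at 400 nM and at 47.4, 43.9 and 41.0 at 800 nM. The 3 groups did not overlap. The log2 fold change was -0.63 (SE 0.13, adjusted p = 0.000192) at 400 nM, -1.57 (SE 0.13, adjusted p = 4.2e-15) at 800 nM and -0.93 (SE 0.13, adjusted p = 4.66e-07) between the doses. The exact permutation test, two-sided, gave p = 0.1 in each comparison, the smallest that 3 against 3 libraries allow. Without the third 400 nM library the change at 400 nM was -0.56 (adjusted p = 0.00409), under the 1.5-fold limit, and over the 15 alternatives its adjusted p ranged from 1.74e-05 to 0.0113.

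ID2 and ID4 were below the filter in the C16 table. ID2 was at 8.74, 8.57 and 6.85 normalized counts with DMSO, at 5.32, 8.07 and 4.26 at 400 nM and at 3.03, 3.66 and 1.91 at 800 nM. The 800 nM libraries lay below the others. They held 8 reads against 27 with DMSO, a ratio of normalized counts of 0.351 with an exact 95% interval of 0.138 to 0.795, whereas at 400 nM the ratio was 0.732 (0.368 to 1.41). Without the filter limma gave a log2 fold change of -1.25 at 800 nM with an adjusted p of 0.0819, and the exact permutation p was 0.1. ID4 had 4 reads with DMSO, 1 at 400 nM and 0 at 800 nM, a count of 0 that allows up to 3 reads over the group, and was not detectable as different at this depth.

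ID3 was not called at either dose, and its means lay above that of DMSO. It was at 21.4, 23.8 and 34.3 normalized counts with DMSO, at 37.2, 31.1 and 44.7 at 400 nM and at 30.3, 40.2 and 30.5 at 800 nM, with overlapping groups. The log2 fold changes were 0.51 (95% interval 0.08 to 0.93, adjusted p = 0.0705) at 400 nM and 0.35 (-0.08 to 0.78, adjusted p = 0.178) at 800 nM, with exact permutation p of 0.2 and 0.3. At 400 nM the call turned on single libraries: without the third DMSO library the change was 0.70 (adjusted p = 0.0238) and without the second 400 nM library 0.63 (adjusted p = 0.0470), and over the 15 alternatives the adjusted p ranged from 0.0238 to 0.344.

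SMAD6 was the other of the 6 tested genes that was called lower at 800 nM. It was at 28.2, 36.2 and 36.5 normalized counts with DMSO, at 21.3, 23.1 and 20.2 at 400 nM and at 10.1, 9.75 and 13.4 at 800 nM, and the 3 groups did not overlap. The log2 fold change was -0.61 (SE 0.25, adjusted p = 0.0653) at 400 nM, -1.52 (SE 0.25, adjusted p = 1.34e-06) at 800 nM and -0.91 (SE 0.25, adjusted p = 0.00979) between doses, each with an exact permutation p of 0.1. The 400 nM difference was called when 2 groups alone were fitted (adjusted p = 0.0317) and with edgeR on the recovered reads (adjusted p = 0.0226), within a range of 0.0226 to 0.190 over 14 alternatives. The difference between doses was not called without the filter (adjusted p = 0.0558, range 0.00933 to 0.0558 over 13 alternatives). The summed ductal markers and the summed mesenchymal markers, the latter nearly all VIM, both stood in the same order as ID1 and SMAD6 in the C16 groups. Neither sum overlapped between groups, and their part in these values was not tested.

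The remaining SMADs were not called at either dose. SMAD5 was at 98.1, 84.8 and 95.9 normalized counts with DMSO, at 111, 99.2 and 113 at 400 nM and at 115, 108 and 107 at 800 nM, with log2 fold changes of 0.21 (95% interval -0.03 to 0.45, adjusted p = 0.198) and 0.24 (0.01 to 0.48, adjusted p = 0.0891). SMAD1 ranged from 8.51 to 22.2 over the 9 libraries, with log2 fold changes of -0.21 (-0.79 to 0.37) and 0.16 (-0.42 to 0.74). SMAD7 ranged from 10.4 to 20.2, with -0.01 (-0.58 to 0.57) and 0.15 (-0.42 to 0.72). BAMBI had 5, 5 and 7 reads with DMSO, 400 nM and 800 nM.

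With DMSO the order per kilobase was ID1 (108 ± 5.44, SD, n = 3), ID3 (21.4 ± 5.53), SMAD5 (13.1 ± 1.01), SMAD6 (11.2 ± 1.57), ID2 (5.91 ± 0.767), SMAD1 (5.75 ± 1.33) and SMAD7 (4.605 ± 0.734), where SMAD5 and SMAD6 and likewise the last 3 did not differ beyond their spread. At 800 nM it was ID1 (35.8 ± 2.59), ID3 (27.2 ± 4.58), SMAD5 (15.5 ± 0.606), SMAD1 (6.37 ± 0.663), SMAD7 (5.11 ± 0.4995), SMAD6 (3.68 ± 0.662) and ID2 (2.10 ± 0.649). ID1 and ID3 were therefore nearer each other in level at 800 nM than with DMSO.

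**Figure D3:**
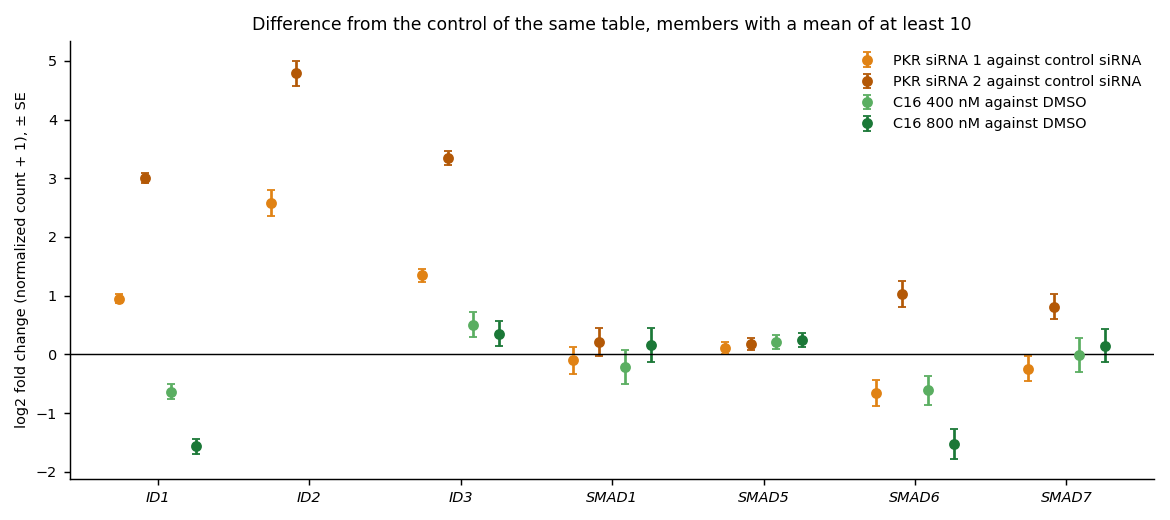
Log2 fold change against the control of the same table, with bars of ± 1 SE from the limma fit, for the genes that reached a mean of 10 normalized counts. ID1 stands at 0.95 and 3.01 with the PKR siRNAs and at -0.63 and -1.57 with C16, whereas ID3 is above 0 in all 4 comparisons and ID2 was not tested in the C16 table.

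The other genes of the pathway were taken from 8 lists of 91 genes written from general knowledge, with earlier results of these data known. Of these, 46 were tested among the 10593 genes of the siRNA table, and 38 among those of the C16 libraries. Under PKR siRNA 1, 6 of 46 (13.0%) were called higher, against 8.53% of all genes tested, and 5 (10.9%) lower, against 12.6%. Under PKR siRNA 2, 8 (17.4%) were called higher, against 10.8%, and 10 (21.7%) lower, against 12.8%. With C16 at 400 nM 9 of 38 (23.7%) were called higher, against 7.08%, and 1 (2.63%) lower, against 5.45%. At 800 nM 11 (28.9%) were called higher, against 11.6%, and 4 (10.5%) lower, against 14.1%. The median log2 fold change of the listed genes was -0.04, 0.04, 0.18 and 0.15 in these comparisons, against -0.0066, -0.011, 0.0010 and 0.0020 over all genes tested. The same shares of all genes tested stand against the counts of each single list below, which are small. Some genes called higher passed the filter only through libraries in which they were high. These were EGR1 with PKR siRNA 1, ATOH8 and DLX3 with PKR siRNA 2, and MSX1 and NOG with C16. The filter thus raised the counts called higher.

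Among 15 other BMP-SMAD target genes, 10 were tested with the siRNAs. PKR siRNA 1 had 2 called higher (ATOH8 and GATA2), against 8.53% of all genes tested, and 0 lower, against 12.6%. The median log2 fold change was 0.25. PKR siRNA 2 had 5 called higher (ATOH8, DLX2, DLX3, GATA2 and GATA3), against 10.8% of all genes tested. It had 1 lower (RUNX2), against 12.8%, and 4 not called, with a median of 0.75. ATOH8, a bHLH factor, was at 5.13, 1.07 and 1.90 normalized counts with control siRNA, at 7.78, 8.16 and 11.6 with PKR siRNA 1 and at 24.9, 34.3 and 37.6 with PKR siRNA 2, so that the groups did not overlap. Its log2 fold changes were 1.59 (SE 0.38, adjusted p = 0.000308) and 3.30 (SE 0.38, adjusted p = 7.16e-12). Like DLX3 below, ATOH8 passed the filter only through the PKR siRNA 2 libraries. Its difference with PKR siRNA 2 therefore had to be large, and the adjusted p of that comparison is no evidence. The count of 5 called higher and the median of 0.75 include ATOH8 and DLX3 and were raised by the filter. GATA2, a zinc finger transcription factor, was at 61.6, 43.0 and 63.5 with control siRNA, at 118, 116 and 106 with PKR siRNA 1 and at 203, 196 and 216 with PKR siRNA 2. It rose by 1.02 (SE 0.12, adjusted p = 2.57e-11) and 1.87 (SE 0.12, adjusted p = 2.12e-23) on the log2 scale. The order of groups was that of the ID genes for both ATOH8 and GATA2.

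DLX3, a homeobox gene, was at 1.03, 8.59 and 6.64 normalized counts with control siRNA, at 4.44, 6.35 and 0 with PKR siRNA 1 and at 28.8, 23.6 and 30.1 with PKR siRNA 2. It rose with PKR siRNA 2 by 2.42 (SE 0.48, adjusted p = 1.87e-05) and was not called with PKR siRNA 1 (log2 fold change -0.63, adjusted p = 0.297). ATOH8 and DLX3 passed the filter only through PKR siRNA 2, so that they had to be high with PKR siRNA 2 once tested. RUNX2, a factor of bone formation, fell by 1.10 with PKR siRNA 2 (SE 0.28, adjusted p = 0.000735). With C16, 4 genes of this list were tested: HES1 and MSX1 were called higher at both doses, and GATA2 and JUNB were not called. MSX1 was at 4.86, 5.71 and 3.81 with DMSO, at 12.8, 13.8 and 10.6 at 400 nM and at 19.2, 17.1 and 19.1 at 800 nM, with log2 fold changes of 1.22 (SE 0.34, adjusted p = 0.00474) and 1.76 (SE 0.34, adjusted p = 2.02e-05). MSX1 likewise passed the filter through the treated libraries.

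Of 13 further BMP ligands, 2 were tested with the siRNAs and 3 with C16. BMP6 was called higher and BMP5 lower with PKR siRNA 1, with PKR siRNA 2 neither was called, at 400 nM 1 was called higher and 0 lower, and at 800 nM 2 were called higher (BMP6 and BMP7) and 1 lower (BMP5). The median log2 fold changes, in the order PKR siRNA 1, PKR siRNA 2, 400 nM and 800 nM kept for the lists below, were -0.22, 0.06, 0.22 and 0.97. BMP6 was at 69.8, 69.8 and 80.6 normalized counts with control siRNA, at 139, 141 and 150 with PKR siRNA 1 and at 51.7, 53.6 and 53.6 with PKR siRNA 2. It rose by 0.96 (SE 0.13, adjusted p = 1.99e-09) with PKR siRNA 1, while its log2 fold change of -0.46 with PKR siRNA 2 (adjusted p = 0.00212) was under the fold limit. BMP6 was thus highest with PKR siRNA 1 and lowest with PKR siRNA 2. ID1, ID2 and ID3 were lowest with control siRNA and highest with PKR siRNA 2. A part of BMP6 in the ID levels was not tested. BMP6 was at 35.0, 27.6 and 27.4 with DMSO, at 78.7, 87.6 and 66.0 at 400 nM and at 71.6, 76.8 and 80.2 at 800 nM. With C16 it rose by 1.34 and 1.32 (SE 0.16, adjusted p = 8.28e-10 and 4.79e-10). BMP5 fell by 1.40 with PKR siRNA 1 (SE 0.31, adjusted p = 0.000116) and by 0.94 at 800 nM (SE 0.26, adjusted p = 0.00276). BMP7 rose by 0.97 at 800 nM (SE 0.30, adjusted p = 0.00601).

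Of 11 receptors and co-receptors, 7 were tested with the siRNAs and 5 with C16, and 0 were called higher in any of the 4 comparisons. The 1 called lower with PKR siRNA 1 and at 800 nM was BMPR1A, the type I receptor also named ALK3, and with PKR siRNA 2 it was RGMB, a co-receptor, while at 400 nM 0 were called lower. Medians were -0.19, -0.12, 0.43 and 0.11. BMPR1A was at 157, 178 and 157 normalized counts with control siRNA, at 73.3, 71.7 and 80.1 with PKR siRNA 1 and at 164, 158 and 182 with PKR siRNA 2. It fell by 1.12 with PKR siRNA 1 (SE 0.11, adjusted p = 9.27e-15), and its log2 fold change with PKR siRNA 2 was 0.03 (adjusted p = 0.829). At 800 nM BMPR1A fell by 0.69 (SE 0.12, adjusted p = 6.62e-06). RGMB fell by 0.96 with PKR siRNA 2 (SE 0.12, adjusted p = 3.79e-11), and its log2 fold changes with C16 were 0.45 and 0.58 (adjusted p = 0.0399 and 0.00334), under the fold limit.

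Of 8 signal transducers and their regulators, 7 and 6 were tested, and 0 were called with PKR siRNA 1 or at 400 nM. PKR siRNA 2 had 0 called higher and 2 lower: SMURF1, a ubiquitin ligase for receptor-regulated SMADs, which fell by 0.95 (SE 0.08, adjusted p = 3.47e-16), and FKBP1A, a protein that holds type I receptors inactive, which fell by 0.68 (SE 0.06, adjusted p = 9.03e-18). The log2 fold change of SMURF1 with PKR siRNA 1 was -0.56 (adjusted p = 5.71e-08), under the fold limit. At 800 nM 1 was called higher, FKBP1A with a log2 fold change of 0.74 (SE 0.07, adjusted p = 9.6e-13), and 0 lower. Medians of this list were -0.03, -0.04, 0.07 and 0.11. SMAD4, the common partner, was not called in any of the 4 comparisons. Its log2 fold change of -0.41 at 800 nM (adjusted p = 0.0359) was under the fold limit.

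Of 20 secreted antagonists and modulators, 5 and 6 were tested. PKR siRNA 1 had 0 called higher and 1 lower, PKR siRNA 2 had 2 higher and 1 lower, and at each C16 dose 1 higher and 0 lower. The list medians were -0.45, 0.44, -0.01 and -0.07. FSTL3, a follistatin-like binder of activin, fell by 0.64 with PKR siRNA 1 (SE 0.18, adjusted p = 0.00204) and rose by 1.11 with PKR siRNA 2 (SE 0.18, adjusted p = 1.98e-07). CRIM1, a membrane protein that binds BMPs, was at 665, 598 and 596 normalized counts with control siRNA, at 427, 448 and 488 with PKR siRNA 1 and at 1376, 1431 and 1354 with PKR siRNA 2. It rose by 1.16 with PKR siRNA 2 (SE 0.06, adjusted p = 2.44e-29), whereas its log2 fold change of -0.45 with PKR siRNA 1 (adjusted p = 9.83e-10) was under the fold limit. BMP1, a protease that despite its name is no BMP ligand, fell by 0.97 with PKR siRNA 2 (SE 0.28, adjusted p = 0.00274). NOG, which encodes the BMP antagonist noggin, was at 7.77, 5.71 and 7.61 with DMSO, at 19.1, 21.9 and 17.0 at 400 nM and at 26.2, 31.7 and 19.1 at 800 nM. It rose by 1.34 (SE 0.29, adjusted p = 0.000272) and 1.71 (SE 0.29, adjusted p = 2.01e-06), and it passed the filter through the treated libraries.

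Among 8 TGF-beta target genes, 7 were tested in each table. PKR siRNA 1 had 0 called higher and 2 lower, PKR siRNA 2 had 0 higher and 3 lower, at 400 nM 3 higher and 1 lower, and at 800 nM 3 higher and 2 lower. The list medians were -0.16, -0.53, 0.58 and 0.55. PMEPA1, a feedback gene of TGF-beta signalling, was at 221, 232 and 234 normalized counts with control siRNA, at 92.2, 92.5 and 103 with PKR siRNA 1 and at 90.5, 83.6 and 80.9 with PKR siRNA 2. It fell by 1.247 and 1.42 (SE 0.11, adjusted p = 9.92e-17 and 1.38e-19). With C16 PMEPA1 went the other way, with log2 fold changes of 0.51 at 400 nM (adjusted p = 0.000449), under the fold limit, and 0.71 at 800 nM (adjusted p = 6.03e-07), which was called. CTGF, which encodes connective tissue growth factor, fell by 0.92 with PKR siRNA 2 (SE 0.09, adjusted p = 3.12e-15) and rose by 1.28 and 1.195 with C16 (SE 0.10, adjusted p = 6.83e-16 and 4.32e-15). SKIL, a repressor of SMADs, fell by 0.69 with PKR siRNA 1 (SE 0.12, adjusted p = 7.09e-07) and by 0.71 and 0.88 with C16 (SE 0.14, adjusted p = 7.53e-05 and 7.38e-07). With PKR siRNA 2 SKIL was at 186, 183 and 139 normalized counts against 127, 109 and 142 with control siRNA, a log2 fold change of 0.42 (adjusted p = 0.00172) under the fold limit.

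Of 11 listed bHLH genes, most of them partners of ID proteins, 4 were tested in each table: 0 were called with PKR siRNA 1, BHLHE40 was the 1 called lower with PKR siRNA 2, and BHLHE40 was the 1 called higher at each C16 dose. The list medians were -0.12, 0.28, 0.02 and 0.02. BHLHE40, a transcriptional repressor, was at 206, 206 and 222 normalized counts with control siRNA, at 174, 170 and 153 with PKR siRNA 1 and at 119, 90.1 and 107 with PKR siRNA 2, and fell by 1.00 with PKR siRNA 2 (SE 0.10, adjusted p = 6.49e-14). With DMSO it was at 45.7, 53.3 and 54.1, with 141, 138 and 134 at 400 nM and 134, 118 and 111 at 800 nM, rises of 1.42 and 1.23 (SE 0.12, adjusted p = 2.88e-14 and 2.09e-12). The E proteins TCF3 and TCF12 were not called in any of the 4 comparisons, with log2 fold changes from -0.25 to 0.28. With PKR siRNA 2 every library of both lay above the controls (0.27 and 0.28, adjusted p = 0.00372 and 0.0126). With PKR siRNA 1 every TCF12 library lay below them (-0.25, adjusted p = 0.0243). These differences were under the fold limit.

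Of 5 other regulators of ID genes, 4 and 3 were tested. PKR siRNA 1 had 3 called higher (ATF3, EGR1 and MYC) and 0 lower, PKR siRNA 2 had 1 higher (ATF3) and 1 lower (EGR1), and at each C16 dose 1 higher (ATF3) and 0 lower. The list medians were 1.18, 0.31, 0.13 and 0.13. ATF3, a stress-induced factor, rose by 1.32 and 1.21 with the PKR siRNAs (SE 0.21, adjusted p = 9.37e-08 and 7.14e-07) and by 1.95 and 1.90 with C16 (SE 0.18, adjusted p = 2.59e-13 and 2.92e-13). EGR1, an immediate-early factor, was at 8.21, 18.3 and 8.53 normalized counts with control siRNA, at 34.4, 38.1 and 33.8 with PKR siRNA 1 and at 2.98, 1.07 and 7.52 with PKR siRNA 2. It rose by 1.61 with PKR siRNA 1 (SE 0.37, adjusted p = 0.000171) and fell by 1.53 with PKR siRNA 2 (SE 0.37, adjusted p = 0.000319). EGR1 passed the filter only through the PKR siRNA 1 libraries, where it was high. The adjusted p of its rise is therefore no evidence, and the count of 3 and the median of 1.18 include it. MYC rose by 1.04 with PKR siRNA 1 (SE 0.09, adjusted p = 8.33e-17), and its log2 fold change of 0.56 with PKR siRNA 2 (adjusted p = 1.89e-07) was under the fold limit.

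**Figure D4:**
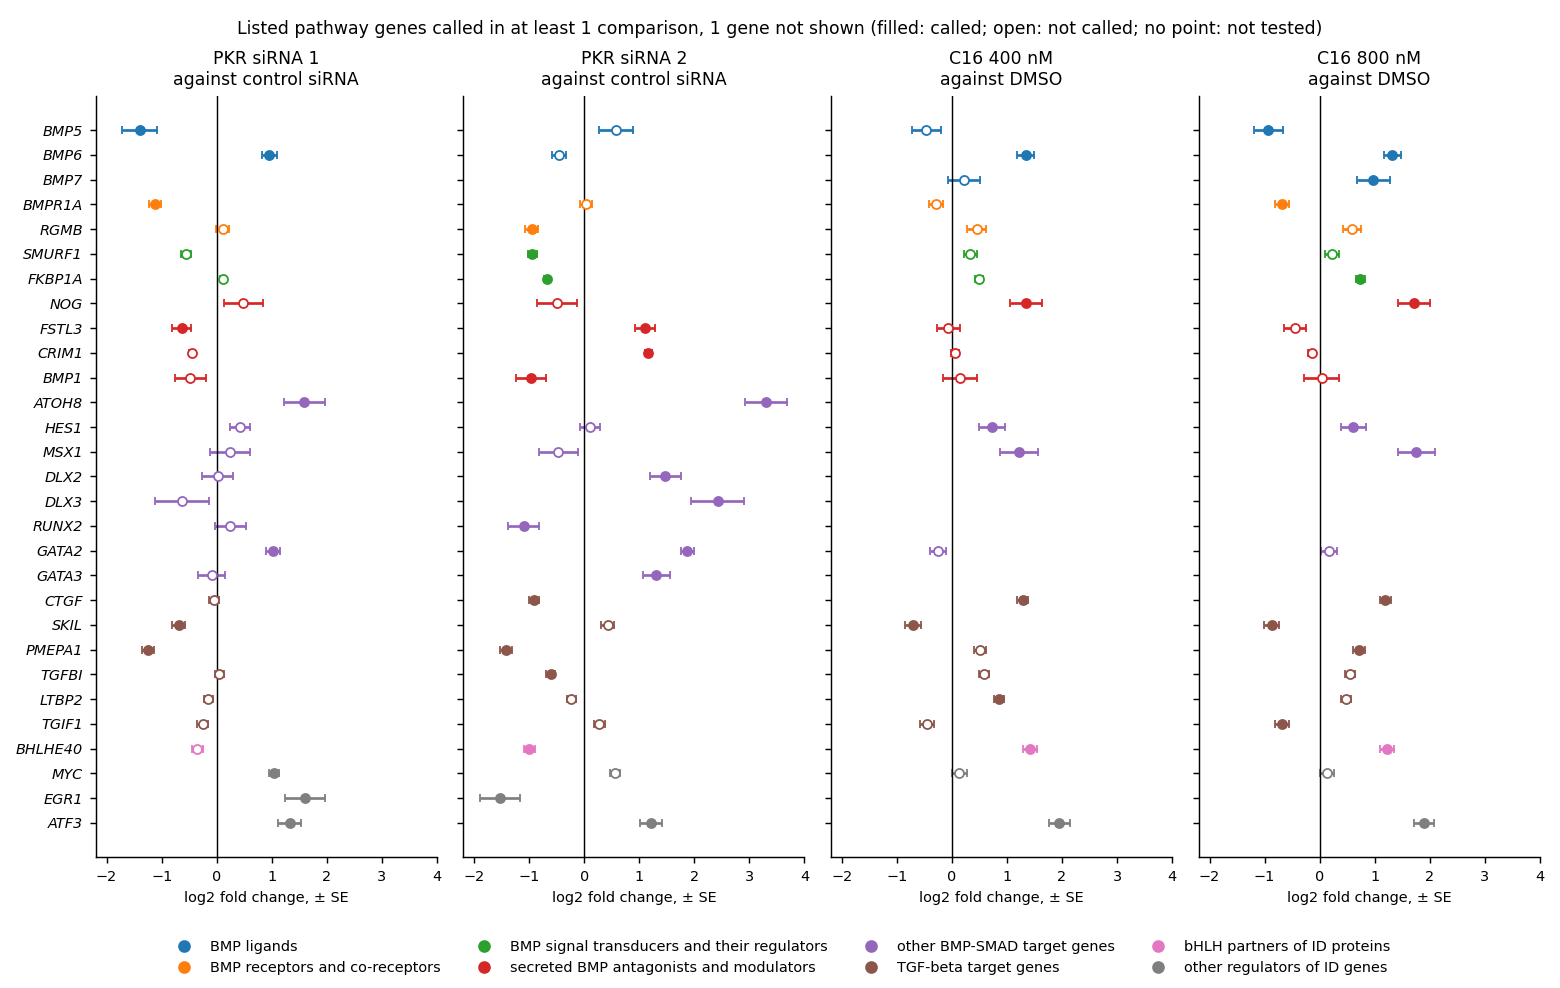
Log2 fold change (± SE, limma) of the listed pathway genes called in at least 1 of the 4 comparisons with control, coloured by list, with filled points for called and open points for tested but not called genes, and with 1 called gene not shown. ATOH8 and DLX3 stand farthest to the right with PKR siRNA 2, at 3.30 and 2.42, and both passed the filter only through its libraries. ATF3 stands at 1.95 and 1.90 with C16.

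The genes most like ID1, ID2 and ID3 were sought by the smaller of the Pearson r over the 9 siRNA libraries and the r over the 9 C16 libraries, among the 9820 (for ID2 9821) other genes tested in both tables. For ID1 they were MXRA8 (r = 0.967 and 0.966), BAHCC1 (0.971 and 0.965) and PSAP (0.958 and 0.987). MXRA8, a cell surface protein, was at 30.1 to 37.0 normalized counts under control siRNA, at 36.7 to 46.7 under PKR siRNA 1 and at 219 to 254 under PKR siRNA 2, and at 137 to 160 with DMSO, 98.9 to 118 at 400 nM and 51.5 to 67.6 at 800 nM. PSAP, the precursor of the lysosomal saposins, was at means of 3688, 3802 and 5932 in the siRNA groups and 4232, 3022 and 2003 in the C16 groups. For ID2 they were NUPR1, a stress-induced chromatin protein (0.932 and 0.922), ID1 (0.962 and 0.921) and CYB5R3 (0.917 and 0.931), and for ID3 ZBTB40 (0.872 and 0.839), SDC3 (0.846 and 0.832) and EME2 (0.835 and 0.819). ID1 was thus among the 3 genes most like ID2, and the likeness for ID3 was smaller. ID2 was below the filter with C16, where its r rests on 27 reads with DMSO, 16 at 400 nM and 8 at 800 nM. The siRNA values of the ID genes were also those by which the genes were chosen. These correlations are a description over libraries that share groups, depth and normalization.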

How the data were processed

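The 18 libraries were made from poly(A) RNA of the PANC-1 line. The authors aligned reads with TopHat to hg38, used featureCounts for gene counts and applied the TMM normalization of TCC. The annotation and strand setting are not given in the sources used here. The deposited signal is thus each gene's count over a scaling factor of its library, and in each library 100% of values were whole multiples of that of 1 read within 0.1, so reads were recovered. The number of columns not assigned to a sample was 0. Libraries of a group differed by more than sampling noise in 18 of 18 pairs (chi-square per degree of freedom 1.03 to 1.47).

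limma 3.58.1 (R 4.3.3, eBayes with trend) was run two-sided on log2 (normalized count + 1) of genes whose mean reached 10, with all 9 libraries of a table in 1 fit, and p-values were adjusted by Benjamini-Hochberg over all genes tested. Genes with an adjusted p under 0.05 and a fold over 1.5 were called. Members and gene lists were chosen with earlier results of these data known. Genes named were the members, EIF2AK2, of each list up to 4 genes with the largest change among those called, and the 3 genes most like each expressed ID gene. Other list genes are named where a count is small, and were chosen after their values were seen. A gene that meets the naming rule is counted in its list but not reported here by name. The alternatives tried were to leave out each library, to add 0.5 or 5 in place of 1, to drop the filter or raise it to 30, to rescale by median of ratios, to fit 2 groups, to block on replicate number, and to run DESeq2 1.42.0 or the quasi-likelihood test of edgeR 4.0.16 on recovered reads. Motifs were searched with Python 3.11.15. The scripts were tested on simulated data.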

Additional observations from a re-analysis of the deposited data

Results flagged for a closer look

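ID1 had opposite directions in the 2 tables. Every C16 library was below every DMSO library, with log2 fold changes of -0.63 at 400 nM and -1.57 at 800 nM, whereas every library of either PKR siRNA was above every control siRNA library (0.95 and 3.01). The difference between the tables was not tested, since the tables come from different runs. The difference between the C16 doses was tested and passed the threshold, with a log2 difference of -0.93 (limma, adjusted p = 4.66e-07).

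ID2 was likewise below every DMSO library at 800 nM, with a log2 fold change of -1.25 from the fit without a filter, and above every control library with each PKR siRNA. This contrast between tables was not tested and rests on 8 and 27 reads.

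SMAD6 was below every DMSO library at both doses (-0.61 and -1.52) and above every control library with PKR siRNA 2 (1.03), a contrast that was not tested. The difference between doses was -0.91 (limma, adjusted p = 0.00979). With PKR siRNA 1 every SMAD6 library was below the controls (-0.66), opposite to PKR siRNA 2. This difference was not tested because siRNA values chose the genes described.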

How the results depend on the processing

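Of the values recomputed under the alternatives for comparisons, 446 kept their direction and side of the threshold or moved by less than the set limit, and 22 did not. Pathway list counts moved with a minimum mean of 30, to 4 called higher with PKR siRNA 2 and 7 at 800 nM, where fewer genes were tested, and without the filter 0 were called lower at 400 nM. With a pseudocount of 5 the log2 fold change of ID2 was 1.97 and 4.06 with PKR siRNA 1 and 2. For SMAD6 at 400 nM the value passed the threshold with 2 groups in the fit (-0.61) and with edgeR (-0.65), and between doses it was lost without the filter (-0.91). SMAD7 at 400 nM, near 0, changed sign with a pseudocount of 5 (0.00073), edgeR (0.066) and DESeq2 (0.037). The causes were not tested.

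Leaving out single libraries gave ranges of -0.68 to -0.56 for ID1 and 0.37 to 0.70 for ID3 at 400 nM. SMAD1 ranged from -0.43 to 0.17 at 400 nM, from -0.027 to 0.29 at 800 nM and from -0.010 to 0.59 between doses. SMAD5 ranged from -0.021 to 0.071 between doses, and SMAD7 from -0.18 to 0.27 at 400 nM and from -0.12 to 0.33 between doses.

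Replicate numbers did not pair the samples: deviations of samples with the same number correlated at -0.0269 to 0.0324 in the siRNA table and -0.0491 to 0.0169 in the C16 table. A replicate block left the log2 fold changes of the members as they were (ID1 at 800 nM -1.57, adjusted p = 1.3e-15) and changed no call. Depth limited ID2 in the C16 table and ID4, BMP4 and BAMBI in both.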

Other observations

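Some listed genes were below the filter and are given as values, chosen after they were seen. HEY1, a target of BMP and Notch signalling, ranged from 2.05 to 3.79 normalized counts under control siRNA, from 13.3 to 21.2 under PKR siRNA 1 and from 3.98 to 7.51 under PKR siRNA 2, so that its highest level was with PKR siRNA 1 and not with PKR siRNA 2 as for the ID genes. BMP7 was at 9.24, 10.7 and 7.58 under control siRNA, at 3.33, 2.72 and 4.82 under PKR siRNA 1 and at 3.98, 5.36 and 5.64 under PKR siRNA 2. EGR1 was at 1.94, 2.86 and 3.05 with DMSO, 6.38, 9.23 and 12.8 at 400 nM and 1.01, 7.31 and 8.59 at 800 nM. BMP2, a further ligand, was at 0 to 4.74 over the siRNA libraries and 0 to 2.13 over the C16 libraries.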
